A study of Mus musculus with 4 samples.

Results

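The 6 genes described here encode the E proteins of T cells, Tcf3 (E2A), Tcf12 (HEB) and Tcf4 (E2-2), and 3 of the Id proteins that bind and silence them, Id1, Id2 and Id3. They were chosen by name as a gene family, and each was represented by 1 probe set whose only gene symbol was that of the member, so 6 of the 22180 named genes were members. RNA came from mouse invariant natural killer T (iNKT) cells, which carry a semi-invariant T cell receptor (TCR) and recognise lipids on CD1d. One group was iNKT cells of CD4-Vα14Tg mice, in which the CD4 promoter drives a transgenic Vα14 TCR α chain, and the other was iNKT cells of wild-type (WT) controls without it. Each genotype was measured on 2 Affymetrix whole-transcript arrays, and the comparison addresses how the transcriptome of iNKT cells differs with the transgene. The labels give neither organ, sorting gate, age nor sex, they mention frozen tissue, and they do not say that the 2 arrays of a genotype came from separate animals, so the p-values measure only the spread between these arrays, which may be technical.

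E proteins are basic helix-loop-helix (bHLH) transcription factors that pair with each other and bind E-box sequences. Id proteins have the helix-loop-helix but lack the basic region that touches DNA, so an E protein held in a pair with an Id protein cannot bind. In thymocytes, signalling through the TCR by way of ERK and Egr factors induces Id3. HEB is needed for iNKT precursors to form, E proteins bind the gene of PLZF, the factor that defines the lineage, and Id2 and Id3 shape how many iNKT cells mature and into which subset.

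The starts of Id3 and Id2 are shown because these are the Id genes whose values on the arrays contrasted. The RefSeq promoter table of build GRCm38.p6 had entries for 4 of the 6 genes, Tcf3, Tcf12, Id2 and Id3. Below are the 250 bases before the first base of each gene, 5′ to 3′ on the strand of the gene, for Id3 at chr4:136143572-136143821 (plus strand) and for Id2 at chr12:25096093-25096342 (minus strand). Capitals mark E-boxes, the letters CANNTG, which read the same on both strands.
Id3: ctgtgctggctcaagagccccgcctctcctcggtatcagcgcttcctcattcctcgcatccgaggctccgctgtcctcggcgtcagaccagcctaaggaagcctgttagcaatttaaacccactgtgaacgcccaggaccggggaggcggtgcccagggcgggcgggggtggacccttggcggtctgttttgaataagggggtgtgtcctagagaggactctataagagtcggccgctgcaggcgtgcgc
Id2: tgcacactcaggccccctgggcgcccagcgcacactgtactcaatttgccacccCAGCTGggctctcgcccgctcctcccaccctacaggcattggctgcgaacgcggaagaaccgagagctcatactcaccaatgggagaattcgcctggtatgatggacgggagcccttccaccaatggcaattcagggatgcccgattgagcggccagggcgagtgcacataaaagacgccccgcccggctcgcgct
The Id2 window held 1 E-box, CAGCTG, which started 196 bases before the gene, and the Id3 window held 0. Of 32851 promoter windows of this length in the table, 66.2% held CANNTG and 13.0% held CAGCTG, a match that is part of the first. Neither window held CACCTG or its reverse complement CAGGTG, found in 17.2% of windows, nor on either strand the Egr letters GCGTGGGCG (0.536% of windows) or GCGGGGGCG (2.57%). Both windows had a G and C content of 62.8%. A match or its absence describes these letters in this window alone.

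Across the whole array, correlations over the 13602 genes tested, which are not independent replicates, were 0.989 and 0.990 within genotypes and 0.977 to 0.983 between them. The T cell and iNKT markers Cd3e, Cd3g and Zbtb16, the gene of PLZF, read between 11.1 and 12.5 on all 4 arrays, where the array medians were 5.04 to 5.07. Of 11 such markers 2 fell in CD4-Vα14Tg cells, beside 1.34% of all genes called lower, Il2rb, a receptor chain for interleukin-2 and interleukin-15 (log2 difference -0.80, limma adjusted p = 0.0427), and Klrb1c, which encodes NK1.1 (-1.45, limma adjusted p = 0.00326). Cd44, a marker of maturation, and Slamf6, a SLAM receptor, had differences of -0.73 and 0.73 short of the threshold (limma adjusted p = 0.0550 and 0.0603). The filter on dim genes was set at the 40th percentile of named probe sets, and below it lay 3 of 8 endothelial and stromal markers, 1 of 3 erythroid and hepatocyte markers (summed level 6.46 to 6.47 in CD4-Vα14Tg and 6.32 to 6.39 in WT), 4 of 6 double positive thymocyte markers, 5 of 6 B cell markers and 6 of 7 myeloid markers. The myeloid marker above it, Itgam, an integrin chain that some lymphocytes also carry, rose (log2 difference 0.67, limma adjusted p = 0.0438). Of 4 NK cell markers 1 was below it, and Ncr1 and Klrb1b fell (limma adjusted p = 0.0122 and 0.00288). Ncr1 read 4.19 and 4.20 in CD4-Vα14Tg and 5.05 and 5.14 in WT. Its WT arrays alone brought it past the filter, so its call depends on the group where it is high. The 4 markers had a summed level of 6.73 to 6.80 in CD4-Vα14Tg and 7.53 to 7.82 in WT. With any 1 array left out the calls of Il2rb and Itgam were lost (limma adjusted p from 0.0590 to 0.206), as they were with no filter (0.0576 and 0.0553) and for Il2rb with a second quantile normalization (0.0730), and that of Ncr1 was lost without either CD4-Vα14Tg array or WT replicate 2 (limma adjusted p from 0.0524 to 0.0636). The parts of these cells in the results below were not tested, and in bulk RNA fewer cells of a type and less RNA per cell cannot be told apart.

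Of the Id genes, only Id3 had groups of arrays that stood apart. Id3, the Id protein induced by TCR signals, read 8.45 and 8.53 on the CD4-Vα14Tg arrays and 8.01 and 7.82 on the WT arrays, on the log2 scale of the deposited values. Both CD4-Vα14Tg arrays were thus above both WT arrays. The means were 8.49 ± 0.05 and 7.92 ± 0.14 (SD, n = 2 arrays each), a log2 difference of 0.575 (SE 0.126, 95% interval 0.28 to 0.87), or 1.49-fold with an interval from 1.21-fold to 1.83-fold. This difference missed the threshold of 0.05, with a limma adjusted p of 0.0848 over all 13602 genes tested and an unadjusted p of 0.00248. It ranked 398th of the 13602 by p, and 95.8% of the genes tested had a smaller absolute difference. The smallest difference that passed for any gene was 0.64.

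Id2, the Id protein linked to effector and innate-like lymphocytes, was nearly the same in both genotypes. Its values were 11.53 and 11.76 in CD4-Vα14Tg cells and 11.49 and 11.75 in WT cells. The 2 ranges overlapped, and the spread within each genotype was wider than the gap between the means. The log2 difference was 0.02 with a 95% interval from -0.32 to 0.37 and a limma adjusted p of 0.990, so that a change of Id2 between 0.80-fold and 1.29-fold lay within the interval. The probe set stood at the 99.5th percentile of named genes or above on every array, where its signal is far from background.

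Id1, which in many cells is a target of BMP and SMAD signalling, was dim. It read 5.37 and 5.68 in CD4-Vα14Tg cells and 5.38 and 5.55 in WT cells, between the 52.6th and 57.3rd percentiles of named genes. The WT arrays lay inside the range of the CD4-Vα14Tg arrays. The log2 difference was 0.06 with an interval from -0.29 to 0.41 and a limma adjusted p of 0.961. Near background an array compresses differences.

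The log2 difference of Id3 exceeded that of Id2 by 0.55, from values on the same arrays. This gap between the differences was not tested.

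**Figure D1:**
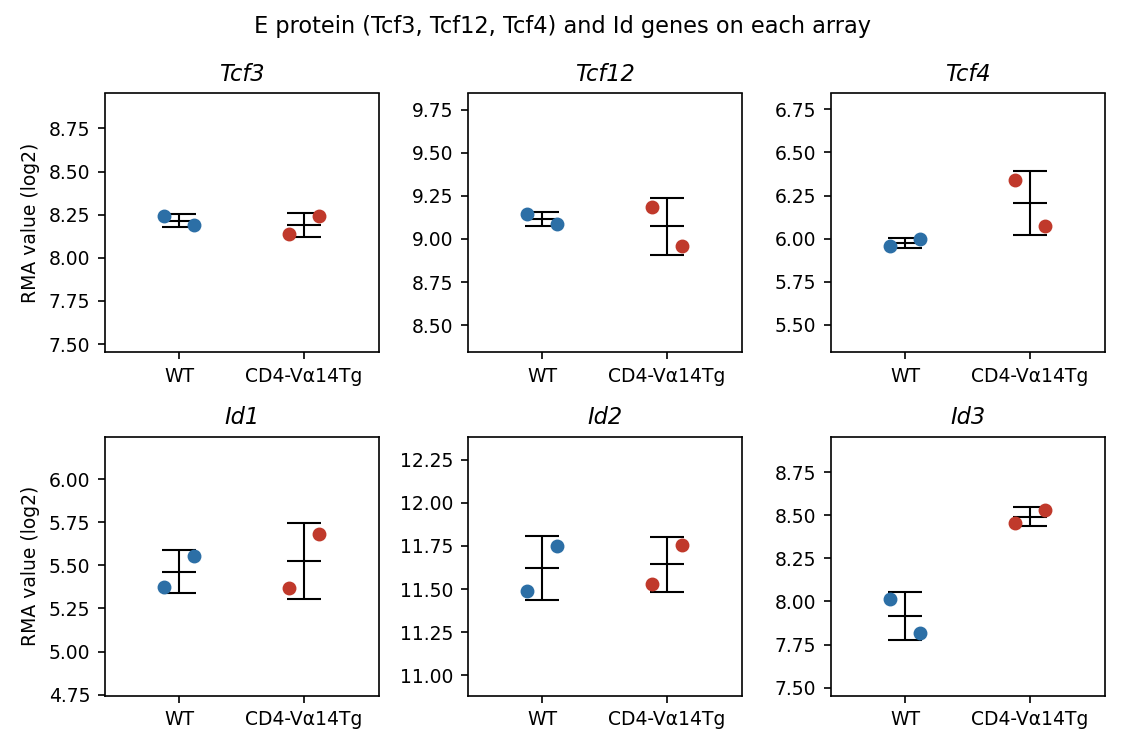
RMA values (log2, y axis) of the 6 genes on each array, with WT in blue and CD4-Vα14Tg in red; points are arrays, bars are the mean ± SD of 2 arrays, and every panel spans 1.5 log2 units. The Id3 arrays separate by genotype (8.45 and 8.53 against 8.01 and 7.82), those of Tcf4 separate by less, and those of the other genes overlap.

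Among the E proteins, Tcf3 and Tcf12 had nearly equal means in the 2 genotypes and Tcf4 read slightly higher with the transgene, without passing the test. Tcf3, whose products E12 and E47 act throughout lymphocyte development, read 8.14 and 8.24 in CD4-Vα14Tg cells and 8.24 and 8.19 in WT cells. Its arrays overlapped, with a log2 difference of -0.03 and a 95% interval from -0.30 to 0.25 and a limma adjusted p of 0.983. Tcf12, the partner of E2A in thymocytes, read 9.19 and 8.96 in CD4-Vα14Tg cells and 9.14 and 9.09 in WT cells. Here the WT arrays lay within the range of the CD4-Vα14Tg arrays, and the difference was -0.04 with an interval from -0.35 to 0.26 and a limma adjusted p of 0.970. E12 and E47 are splice forms of 1 gene, as are the long and short forms of HEB, and a single probe set per gene does not separate them.

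Tcf4, the E protein that specifies plasmacytoid dendritic cells, read 6.34 and 6.08 in CD4-Vα14Tg cells and 5.955 and 5.995 in WT cells. The arrays of the genotypes did not overlap, but the gap between them was smaller than the spread of the CD4-Vα14Tg arrays. The log2 difference was 0.23 with an interval from -0.08 to 0.55 and a limma adjusted p of 0.613, it was 0.10 without CD4-Vα14Tg replicate 1 and 0.365 without CD4-Vα14Tg replicate 2. Of 6 markers of plasmacytoid dendritic cells 4 lay below the filter, Siglech, Klk1, Spib and Bcl11a. Pacsin1 was above it, at 7.96 and 7.985 in CD4-Vα14Tg and 8.12 and 8.055 in WT (limma adjusted p = 0.835). Cox6a2 was also above it, at 5.24 and 5.52 against 5.58 and 5.28. The summed level of the 6, of which Pacsin1 was the brightest, was 8.43 to 8.51 in CD4-Vα14Tg and 8.51 to 8.61 in WT on the log2 scale. Markers of B cells, which also use Tcf4, summed to 6.98 to 7.05 against 6.69 to 7.04, with 5 of 6 below the filter and Cd79b, a B cell receptor chain, at a log2 difference of 0.48 (limma adjusted p = 0.124). Endothelial and stromal markers summed to 9.56 to 9.58 against 9.16 to 9.24, with Pecam1 the brightest. Of 5 tested, 4 were higher in CD4-Vα14Tg cells without overlap, beside 15.7% of all genes tested. Pecam1, an adhesion molecule that leukocytes also carry, read 9.13 on both CD4-Vα14Tg arrays and 8.69 and 8.62 on the WT arrays (limma adjusted p = 0.116). Kdr, Pdgfrb and Col1a1 had differences of 0.235, 0.23 and 0.07. Col1a2, whose arrays overlapped, had -0.06 (limma adjusted p of these genes from 0.600 to 0.961). Cdh5, Tek and Emcn were below the filter. The part of these cells in the Tcf4 and Id1 values was not tested.

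As a family, 0 of the 6 members passed limma's test, beside 1.95% of all genes tested (265 of 13602; 0.61% higher and 1.34% lower in CD4-Vα14Tg cells), and 1 of 6, Id3, had an unadjusted p under 0.05, beside 11.7% of all genes. The arrays of the genotypes did not overlap for 2 of 6 members, Id3 and Tcf4, both higher in CD4-Vα14Tg cells, beside 39.1% of all genes tested (15.7% higher and 23.4% lower). A count of 2 in 6 is near that background. The median log2 difference of the members was 0.04, and that of all genes tested was -0.02. All 6 members passed the filter.

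**Figure D2:**
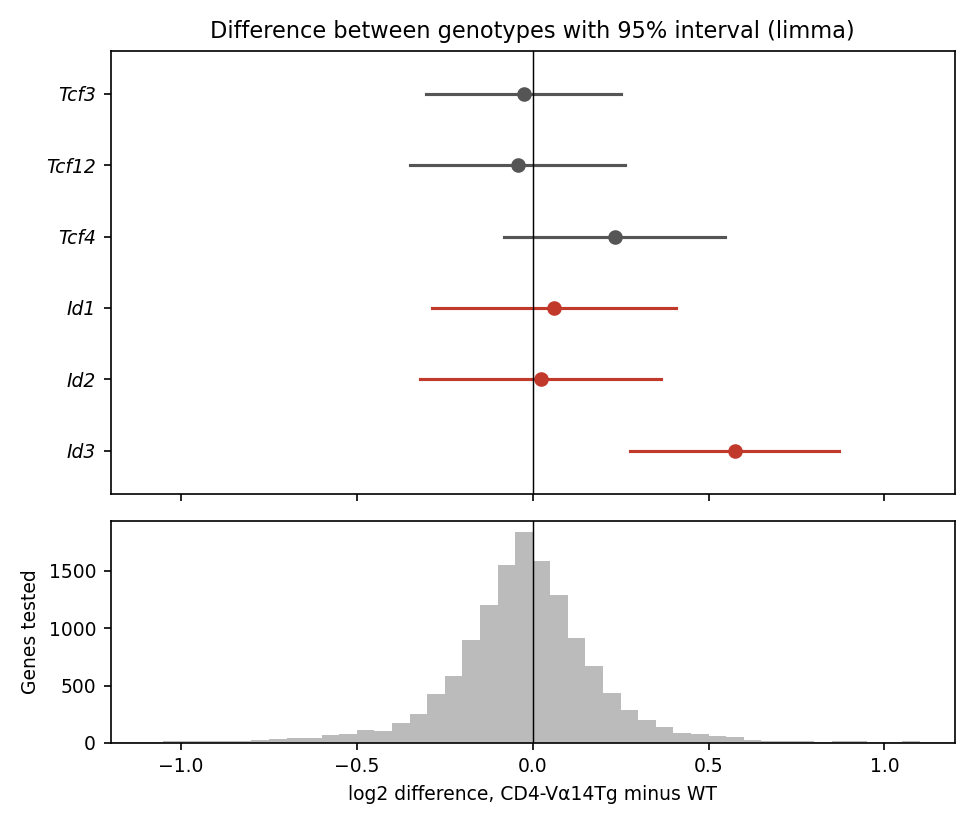
Top, log2 difference (x axis, CD4-Vα14Tg minus WT) of each E protein gene in grey and Id gene in red, with points for the estimate and lines for limma's 95% interval; bottom, number of all tested genes per bin of 0.05, shown from -1.2 to 1.2. The Id3 interval, 0.28 to 0.87, is the one of the 6 that does not include 0.

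Genes upstream of the Id genes were represented by 16 Egr, ELK, SRF, TGF-β, BMP and SMAD pathway genes, of which 14 were tested. Egr1, an immediate early factor that ERK signalling induces, fell. It read 9.11 and 9.31 in CD4-Vα14Tg cells and 10.07 and 10.27 in WT cells, without overlap. The log2 difference was -0.96 (limma adjusted p = 0.0171), a call lost without CD4-Vα14Tg replicate 1 (limma adjusted p = 0.0733) or without WT replicate 2 (limma adjusted p = 0.0778). The difference of Egr1 was therefore opposite in sign to that of Id3.

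The related Egr genes missed the threshold and differed in sign. Egr2, which iNKT cells need to develop, had a log2 difference of 0.19 (limma adjusted p = 0.699), and Egr3 had -0.34 (limma adjusted p = 0.451). Smad3, a carrier of TGF-β signals, read 8.50 and 8.44 against 9.06 and 8.96 in WT, a difference of -0.54 short of the threshold (limma adjusted p = 0.0843). Tgfbr2, a receptor chain for TGF-β, had 0.22 (limma adjusted p = 0.609). The other SMAD genes, Smad1, Smad2, Smad4 and Smad5, had differences between -0.04 and 0.08. In all 1 of the 14 passed, which was lower, beside 1.34% of all genes called lower, 2 had an unadjusted p under 0.05, beside 11.7% of all genes, and the median was -0.06.

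Partners and cofactors of E proteins showed small differences. Of 16 genes, 12 were tested, and 0 passed limma's test, beside 1.95% of all genes, while 1 had an unadjusted p under 0.05, beside 11.7% of all genes. That gene was Cbfa2t3, a corepressor of the ETO family that E proteins recruit, with a log2 difference of -0.37 (limma adjusted p = 0.336). Kat2b, an acetyltransferase, had 0.22, Cbfa2t2, another ETO family corepressor, had 0.09, and Msc, a bHLH repressor that pairs with E proteins, had -0.11 (limma adjusted p from 0.704 to 0.933). The second probe set of Msc had 0.06. The coactivator genes Ep300 and Crebbp had differences of -0.02 and -0.05. Id4, the fourth Id gene, read from 4.91 to 4.98 on all arrays and had a difference of -0.004. The bHLH genes Tal2, Lyl1 and Tcf21 were below the filter. The median of the list was -0.01.

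Genes that E proteins are known to control in lymphocytes went in both directions, with a positive difference in 7 and a negative one in 6 of 13 tested. None passed limma's test, so the count was 0, beside 1.95% of all genes tested. An unadjusted p under 0.05 was found for 6 of the 13, beside 11.7% of all genes. The list was written with earlier results of these data known, so this share is not a test of E protein targets. The median was 0.04. Cdk6, a cell cycle kinase that E2A represses, read 8.79 and 8.75 in CD4-Vα14Tg cells and 8.03 and 8.23 in WT cells. Its groups did not overlap, and the difference was 0.64 (limma adjusted p = 0.0603). Foxo1, a forkhead factor that keeps naive lymphocytes quiescent, read 9.26 and 9.42 against 8.79 and 8.72, a difference of 0.58 (limma adjusted p = 0.0721), but its second and dimmer probe set had -0.10. Notch3, a Notch receptor of early thymocytes, had 0.40 (limma adjusted p = 0.227). Cdkn1a, the gene of the cell cycle inhibitor p21, had the most negative difference of the list, -0.94, from 7.12 and 6.17 against 7.79 and 7.37 (limma adjusted p = 0.234). Of the genes at a limma unadjusted p under 0.05, Cdk6, Foxo1 and Notch3 had positive differences and Cdkn1a, Cxcr5 and Notch1 negative ones. Notch1 had -0.35 (limma adjusted p = 0.335). Cxcr5 is also in the list of follicular helper-like genes and is given there.

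Among the lineage targets, Il7r, Cd4 and Gata3 differed by less than the spread within genotypes. Il7r, the interleukin-7 receptor, read 11.57 and 11.87 against 11.54 and 11.82, a difference of 0.04, and the co-receptor gene Cd4 had -0.08. Gata3, a regulator of T helper and NKT2 cells, had -0.03, while Zbtb16, whose groups did not overlap, had 0.23 with an interval from -0.05 to 0.51 and a limma adjusted p of 0.567. Ptcra, the pre-TCR α chain and an E protein target of immature thymocytes, was dim, at 5.61 and 6.14 against 5.82 and 5.69. These genes, Cdkn1a and Notch1 were picked after their values were seen. Probe sets named with the gene alone covered 14 of the 16 genes of this list, and the remainder was not analysed here.

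Follicular helper-like genes, a program that Id3 is known to restrain, gave 0 calls by limma among 10 tested, beside 1.95% of all genes, with 2 at an unadjusted p under 0.05, beside 11.7% of all genes, and a median of 0.01. Cxcr5, the receptor for the B cell follicle chemokine, read 5.75 and 5.93 in CD4-Vα14Tg cells and 6.54 and 6.27 in WT cells. All CD4-Vα14Tg values lay below all WT values, with a difference of -0.57 (limma adjusted p = 0.128). Btla, an inhibitory receptor, had a difference of 0.40 (limma adjusted p = 0.311), Pdcd1, which encodes PD-1, had -0.24 (limma adjusted p = 0.609), and Icos, a costimulatory receptor, had -0.21 (limma adjusted p = 0.719). Bcl6, the defining factor of follicular helper cells, was dim at 4.87 to 4.98 on the 4 arrays.

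Among other bHLH factors, which do not depend on E proteins as partners, Ahr was the one that passed. Ahr, a ligand-activated bHLH factor that senses aromatic compounds, fell from 8.61 and 8.74 on the WT arrays to 7.31 and 7.04 on the CD4-Vα14Tg arrays. The log2 difference was -1.50, or 2.83-fold (limma adjusted p = 0.00332), and it passed under each of the 13 alternatives run (limma adjusted p from 5.76e-04 to 0.0164). Bhlhe40, a repressor that supports cytokine production in T cells, read 9.98 and 9.34 against 10.91 and 10.51 in WT. The SD within genotypes was 0.45 and 0.29, and the difference of -1.05 missed the threshold (limma adjusted p = 0.0836). Leaving out CD4-Vα14Tg replicate 1 made it -1.37 and past the threshold (limma adjusted p = 0.0294). Clock, a circadian factor, had -0.36, and Tfeb, a regulator of lysosomal genes, had -0.26 (limma adjusted p = 0.408 and 0.467). In all 1 of 15 tested passed, lower in CD4-Vα14Tg cells, beside 1.34% of all genes called lower, 3 had an unadjusted p under 0.05, beside 11.7% of all genes, 10 had a negative difference, and the median was -0.12.

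**Figure D3:**
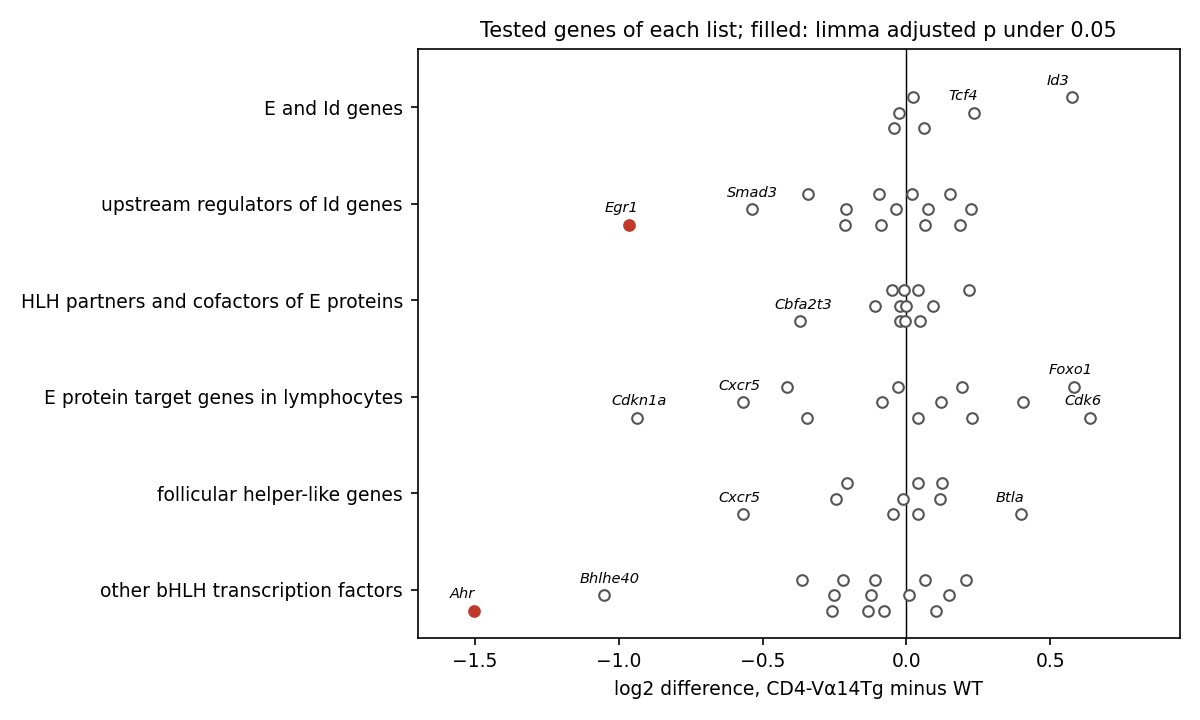
log2 differences (x axis, CD4-Vα14Tg minus WT) of the tested genes of the family and of each list (y axis; points are spread vertically only for legibility). Egr1 and Ahr are filled as past limma's threshold, and Id3 at 0.575 is the highest of the 6 family members.

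**Figure D4:**
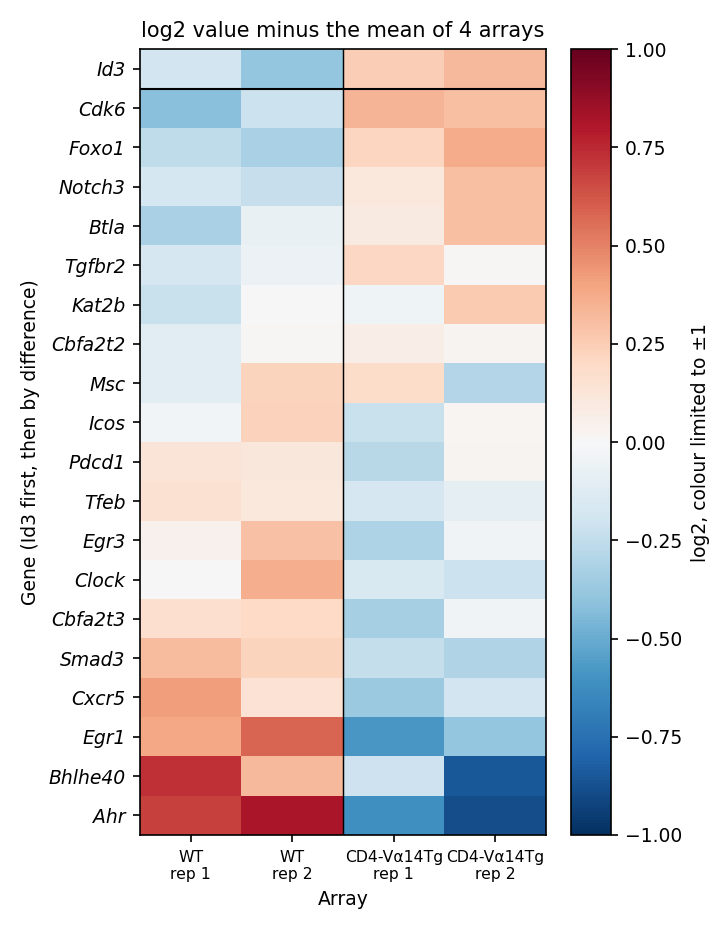
log2 values of Id3 and of the 19 named list genes (rows) on the 4 arrays (columns), each minus its mean over the arrays, with red above and blue below that mean and colours limited to ±1. Id3, Cdk6, Foxo1 and Notch3 are above their mean on both CD4-Vα14Tg arrays, and Ahr, Egr1, Smad3 and Cxcr5 are below it on both.

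Id3 was the one member whose 4 arrays spanned at least 0.5 on the log2 scale, with a range of 0.71. The 3 genes whose centred values over the 4 arrays lay nearest to those of Id3, out of 11930 compared, were Gpr146, an orphan G protein-coupled receptor, Cym, the gene of the digestive protease chymosin, and Gabrr2, a GABA receptor subunit. Their root mean square differences from Id3 were 0.0374, 0.0386 and 0.0487. Gpr146 read 6.75 and 6.83 in CD4-Vα14Tg cells and 6.33 and 6.21 in WT cells, a difference of 0.52. Likeness over 4 arrays of 2 genotypes mainly says that a gene has a difference of similar size, and 0 of these 3 passed limma's test (limma adjusted p from 0.0989 to 0.159).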

How the data were processed

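Expression was measured on 4 arrays, 2 per genotype, and groups were taken from the genotype label. The deposited values are log2 values per probe set made by the authors with RMA (background correction, quantile normalization and probe summary) and Affymetrix Power Tools, per the submitters' processing notes; for versions, options and build the sources used here give nothing. Quantile normalization equalises the arrays, so a shift of total RNA is not visible, and the number of arrays limits the precision.

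Of 41345 probe sets, 23521 had 1 gene symbol in the platform annotation, covering 22180 genes. For a gene with several, the probe set with the highest mean was used. Genes at or above the 40th percentile of named probe sets on at least 2 arrays were tested (13602). The genotypes were tested two-sided (R 4.3.3, limma 3.58.1, lmFit then eBayes), with Benjamini-Hochberg adjustment over all genes tested and a threshold of 0.05. The fit was checked on simulated data. Other steps used Python 3.11.15 and pandas 2.3.3, with matplotlib 3.10.9 for plots.

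The members and lists were chosen with earlier results of these data known. Named were all members, list genes past the test or among the 4 largest absolute moderated t of a list, and the 3 nearest profiles to a member spanning at least 0.5. Other genes were named after their values were seen. The alternatives concerned filter, normalization, probe sets, variance model, replicate block and leaving out each array.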

Additional observations from a re-analysis of the deposited data

How the results depend on the processing

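With the replicate number as a block (replicate block), 674 genes passed in place of 265, Id3 passed at the same difference of 0.575 (limma adjusted p = 0.0356), and the calls were 2 for upstream regulators (main 1), 3 for E protein targets (main 0) and 2 for other bHLH factors (main 1). Among the list genes followed through the alternatives, the block added Smad3, Foxo1, Cdk6 and Bhlhe40 (limma adjusted p = 0.0343, 0.0313, 0.0225 and 0.00209). The remaining E protein target call was a gene that was not followed, and it is not named here. The labels do not say that a number marks a shared animal or day, and over genes the differences between replicates of the 2 genotypes correlated at 0.262, and the fit without the block was kept. Every probe set as its own feature gave 413 calls, and leaving out 1 array gave 166 to 221 (169 and 166 when CD4-Vα14Tg replicate 1 or 2 was left out, 166 when WT replicate 2 was).

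Id3 stayed positive under all 13 alternatives, at 0.478 to 0.672 with 1 array left out (limma adjusted p up to 0.347), and Tcf4 did too, at 0.10 to 0.365. The other members changed sign: with 1 array left out, Tcf3 ranged from -0.0765 to 0.0255, Tcf12 from -0.1575 to 0.0725, Id1 from -0.094 to 0.215, Id2 from -0.1085 to 0.1545 and the list gene Msc from -0.3465 to 0.1285. With a second quantile normalization Tcf12 was 0.00019. With the 60th percentile filter Id1 was not tested.

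E protein targets gave 1 call, Cdk6, with the 60th percentile filter, quantile normalization, every probe set as its own feature and eBayes with trend. With 1 array left out the difference of Cdk6 was 0.536 to 0.738, and any call of this list in those fits was of another gene. Upstream regulators gave 0 to 1 and other bHLH factors 1 to 2 with 1 array left out. The causes were not tested.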
